A study of Mus musculus with 6 samples.

Results

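The genes described here are *Atf4* and 39 genes known as its targets or partners in amino acid synthesis, amino acid transport and tRNA charging, in sorted B16-F10 mouse melanoma cells. They were chosen by name, as a list of 40 mouse symbols, and all 40 had a row among the 18324 gene rows of the count matrix. They fall into 4 roles: 9 regulators and stress effectors, 11 enzymes of amino acid and one-carbon metabolism, 9 amino acid transporters and 11 cytosolic aminoacyl-tRNA synthetases. ATF4 is a basic leucine zipper transcription factor whose mRNA is translated best when the initiation factor eIF2 is phosphorylated, as happens when amino acids run short or misfolded protein builds up in the endoplasmic reticulum. It binds DNA as a dimer, often with a C/EBP protein, at the C/EBP-ATF response element. Its targets supply amino acids, import them and attach them to their tRNAs, and some of them, such as *Ddit3*, *Trib3* and *Chac1*, feed back on the pathway or bear on cell survival.

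B16-F10 is 1 melanoma cell line, grown in culture in serum-containing medium with no other treatment named in the labels. Flow cytometry separated its cells into a High-pigmented and a Low-pigmented group by how melanin scatters light, and the study asked how the 2 groups differ in gene expression. Each group had 3 libraries of 3′-end mRNA sequencing (QuantSeq), and each library name carries a suffix (16-9-15, 18-8-14 or 1-9-14) shared by 1 high and 1 low library, called a set here. The labels do not say what a suffix stands for or whether libraries came from separate cultures, so p-values measure only the spread between these libraries, which may be technical.

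The libraries held 3819605 to 7311131 counts on genes, of which 9393 to 70126 were on the 40 genes. Set 18-8-14 stood apart: 1 row, RP23-81C12.3, took 53.9% of its high and 27.1% of its low library, against 3.54% to 5.03% in the 4 other libraries, and mitochondrial rRNA took 12.2% and 7.69%, against 1.51% to 1.99%. Both shares, and the share of reads on no gene (12.4% to 29.5% over the 6 libraries), were higher in the high library of every set. Their part in the results below was not tested, and results are given with and without set 18-8-14. The 7 melanocytic markers (*Dct*, *Tyrp1*, *Tyr*, *Pmel*, *Mlana*, *Sox10*, *Mitf*) all had rows and summed to 1999 to 26994 CPM (counts scaled to a common library size; for these markers by the total of gene counts, with no TMM factor, so not on the scale of the CPM below) in the high and 4528 to 22519 in the low libraries. Leukocyte markers (2 of 6 with a row) summed to 3.50 to 12.04 CPM in the high and 0 to 4.39 in the low libraries, fibroblast markers (3 of 5) to 1.22 to 14.9 and 1.88 to 7.02, endothelial markers (1 of 3) to 0 to 5.24 and 0, and no keratinocyte marker of 4 had a row. Of the 40 genes 10 overlap an exon on the opposite strand, and 3 (*Phgdh*, *Slc3a2*, *Eprs*) share near-identical stretches (at least 100 bases at 95% identity or more) with other rows.

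The C/EBP-ATF response element was searched in promoters from RefSeq (build GRCm38.p6), 250 bases before to 50 after each start, as TGATGNAA on either strand, which reads TTNCATCA on the other. Of the 40 genes 32 had a promoter in that table, and 12 of them (37.5%) held a match, against 1219 of 27025 genes in all (4.51%). The matches lay in 3 of 9 regulator promoters (*Nupr1*, *Trib3*, *Chac1*), 3 of 10 enzyme promoters (*Asns*, *Pycr1*, *Got1*), 2 of 6 transporter promoters (*Slc7a11*, *Slc1a4*) and 4 of 7 synthetase promoters (*Aars*, *Gars*, *Tars*, *Iars*). *Slc7a11* held 2 matches in opposite orientation, starting 66 and 47 bases before its start. Each was the exact reverse complement of the other, and 3 genes in the whole table, *Slc7a11* included, held such an exact pair. Pairs in opposite orientation that differ at the N base were not counted, and 23 genes held 2 or more matches in a promoter. The windows below belong to the genes with a match whose values are followed most closely in the text, printed 5′ to 3′ along the gene with the matches in capitals.
Slc7a11, chr3:50443642-50443690, minus strand: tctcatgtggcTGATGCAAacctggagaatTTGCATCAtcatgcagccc
Trib3, chr2:152344028-152344057, minus strand: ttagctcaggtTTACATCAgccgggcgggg
Chac1, chr2:119351038-119351067, plus strand: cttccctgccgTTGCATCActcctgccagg
Pycr1, chr11:120643833-120643862, minus strand: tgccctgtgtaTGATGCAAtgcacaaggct
Gars, chr6:55037960-55037989, plus strand: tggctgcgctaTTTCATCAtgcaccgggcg
Tars, chr15:11399655-11399684, minus strand: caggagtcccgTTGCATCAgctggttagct
Iars, chr13:49682126-49682155, plus strand: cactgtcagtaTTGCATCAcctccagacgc
A match describes the letters only, and no binding was measured in these samples.

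**Figure D1:**
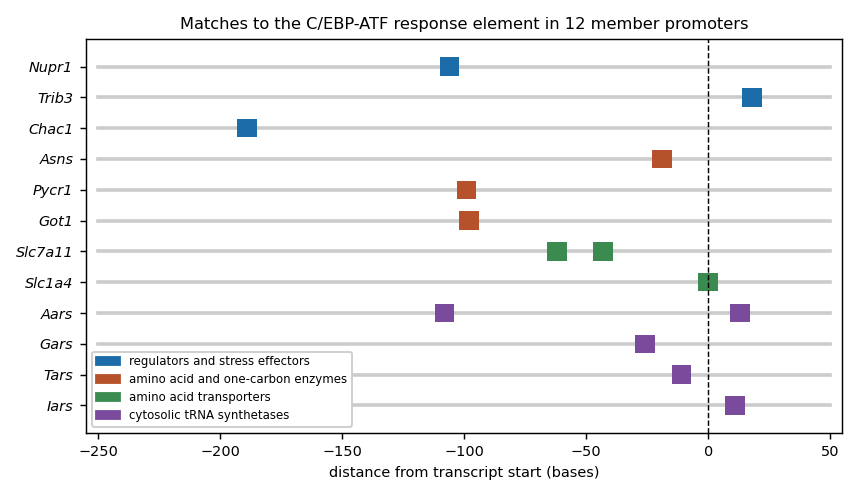
Positions of the matches to the C/EBP-ATF response element in the 12 promoters that hold one. The x axis is the distance from the transcript start in bases, from 250 before to 50 after, each coloured bar is 1 match of 8 bases drawn to scale, and colours give the role. *Slc7a11* and *Aars* have 2 matches each, and the others have 1.

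Over all 6 libraries, the 40 genes together took a smaller share of counts in the high-pigmented group, and no single gene passed the test. Together they made up 0.839% of gene counts in the high and 0.990% in the low library of set 16-9-15, 0.246% and 0.496% in set 18-8-14, and 0.827% and 0.959% in set 1-9-14 (95% Wilson intervals within 0.00909 percentage points, counting error only). The share was lower in the high library of every set, and it stayed lower when RP23-81C12.3 and mitochondrial rRNA were left out of the total: 0.902% against 1.04%, 0.726% against 0.761%, and 0.885% against 1.01%. That step narrowed the gap most in set 18-8-14. In bulk RNA of this kind, fewer cells expressing a gene and less RNA per cell cannot be told apart.

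Of the 40 genes 38 had enough counts to be tested over 6 libraries, and *Slc7a3* and *Slc6a9* did not. Their median log2 fold change, high over low, was -0.23, with 30 negative and 8 positive, against a median of -0.04 over all 11324 genes tested. That split rested in part on single libraries: without the high library of set 18-8-14 it was 20 negative and 19 positive (median -0.062), without the low library of set 16-9-15 23 and 16 (-0.096), and without the low library of set 1-9-14 27 and 12 (-0.14). The median was -0.42 without the high library of set 16-9-15, -0.38 without that of set 1-9-14 and -0.43 without the low library of set 18-8-14. None of the 38 was called by the quasi-likelihood test of edgeR after Benjamini-Hochberg adjustment, where 0.0% of all genes were called, and none had an unadjusted p under 0.05, which 38 of all genes had. DESeq2 called 0 of them as well. With the set as a replicate block 4 of the 38 had an unadjusted p under 0.05 (*Eprs*, *Nars*, *Pycr1*, *Slc7a11*) and 0 were called, where 213 of all 11324 genes had such a p. Limma-voom with sample weights and the block called 0, with 11 of the 38 and 1311 of all 11324 genes at an unadjusted p under 0.05. The spread between libraries of a group was wide, with a biological coefficient of variation of 71.6% in this fit.

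Set by set, the high library was the lower one for most of these genes. 18 of the 38 genes were lower in the high library of all 3 sets, against 17.2% of all genes tested, and 2, *Chac1* and *Cth*, were higher in all 3, against 12.9%. In 3 genes, *Slc1a4*, *Gars* and *Nars*, all high libraries lay below all low libraries, which 3.31% of all genes did, and in none did they lie above, which 2.43% did. Within set 16-9-15 the high library was the lower one in 30 of 39 genes (median difference -0.21 in log2 CPM), within set 1-9-14 in 28 (median -0.18) and within set 18-8-14 in 26 (median -0.28). Over all 11906 genes it was the lower one in 5766, 5944 and 6437, with medians of 0.017, 0 and -0.18 in the same order, so in set 18-8-14 all genes together were lower too. Set 18-8-14 gave both of the extremes among genes with at least 10 CPM on average: *Slc1a4*, a neutral amino acid exchanger, had a log2 difference of -3.66 and *Nupr1*, a small stress-induced chromatin protein, one of 1.08. The value for *Slc1a4* rests on only 6 counts in the high library, against 168 in the low. The other sets ran from -0.96 (*Atf5*) to 0.42 (*Cth*) and from -1.11 (*Pycr1*) to 0.49 (*Nupr1*) among the same genes.

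**Figure D2:**
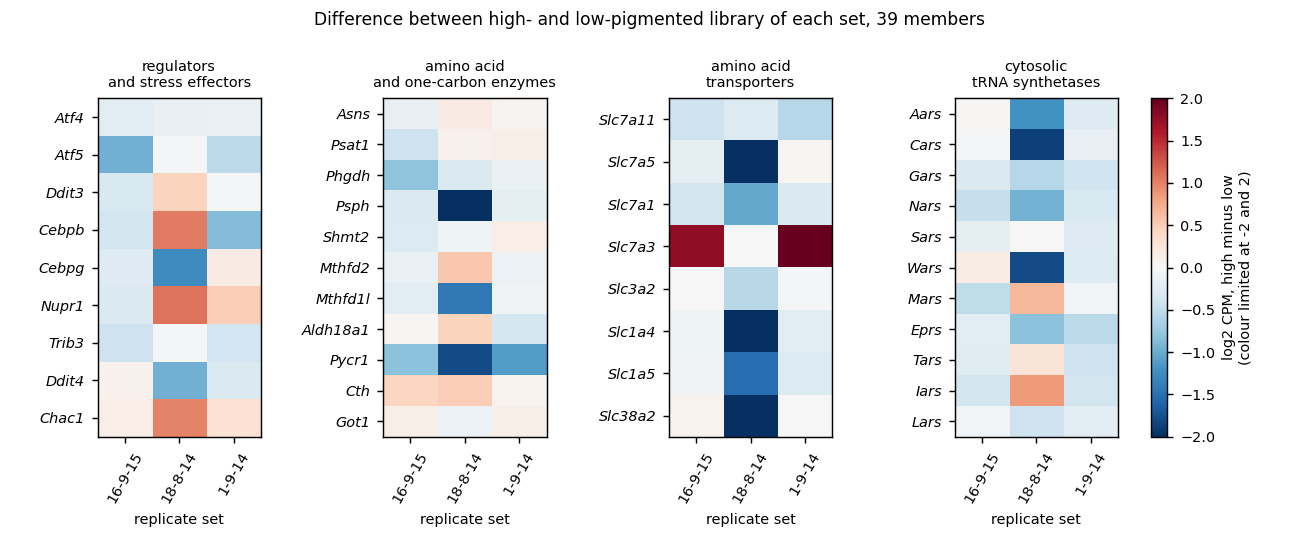
Difference in log2 CPM between the high- and the low-pigmented library of each set, for 39 genes in 4 role panels (*Slc6a9* is left out). Blue is lower and red is higher in the high library, with the colour limited at -2 and 2. Synthetases are blue in most cells, the middle column (set 18-8-14) holds the darkest blues, *Slc7a3*, with few counts, is the darkest red in the outer columns, and *Chac1* and *Cth* are red in all 3 columns.

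Within sets 16-9-15 and 1-9-14, compared as high against low with the set as a block, 2 of the 40 genes fell in the high-pigmented cells: *Atf5* and *Slc7a11*. None rose. Counting these 2 genes, 33 of 39 tested genes had a negative log2 fold change, with a median of -0.16, while 49.9% of all 11906 genes tested were negative and their median was 0.00. At an unadjusted p under 0.05, 12 of 39 were lower, a level that 6.06% of all genes reached in that direction, and 1 was higher, where 6.08% of all genes were. 24 of 39 were lower in both sets, against 27.9% of all genes. Over all genes the test called 0.37% lower and 0.932% higher. With set and sort both fitted to 4 libraries, little remains to measure a gene's own spread. SE and p from this fit therefore rest largely on spread pooled over genes. Leaving out set 18-8-14 was decided with earlier results of these data known, and without the block 0 of the 39 genes and 0 of all genes were called. Leaving out any 1 of the 4 libraries, which also forced the block to be dropped, called 0 as well, with 24 to 32 of the 39 negative and medians of -0.26 to -0.15.

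**Figure D3:**
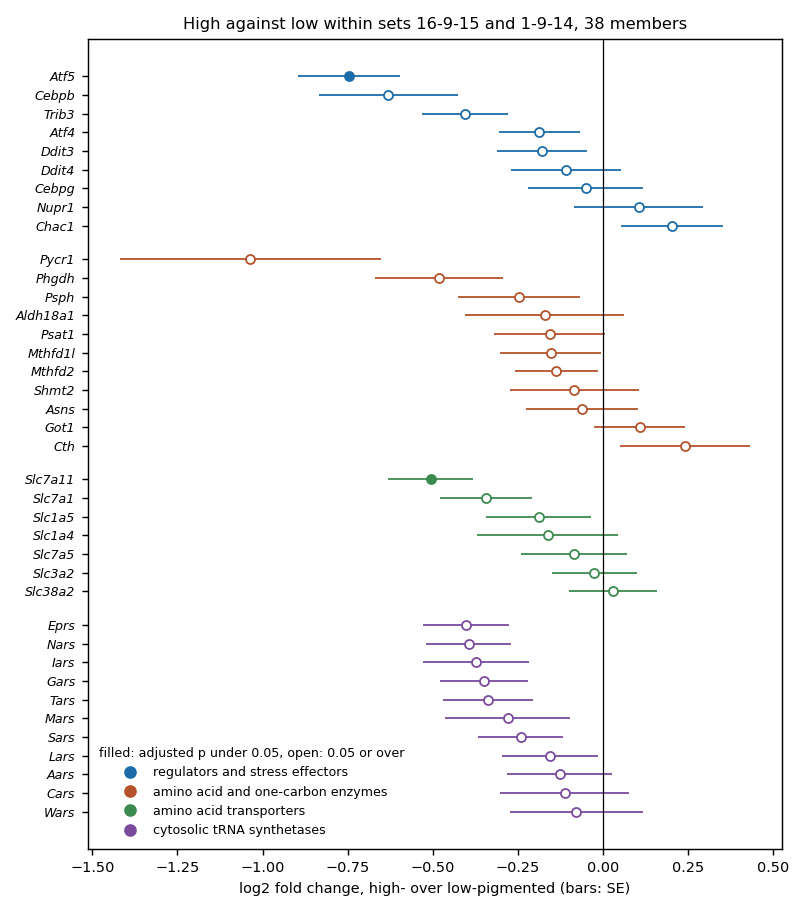
Log2 fold change, high- over low-pigmented, within sets 16-9-15 and 1-9-14 for 38 genes in 4 roles (*Slc7a3* and *Slc6a9* are left out). Points are edgeR estimates, bars are 1 SE to each side (SE derived from the test statistic), and filled points had an adjusted p under 0.05. Only *Atf5* and *Slc7a11* are filled, and all 11 synthetases lie left of 0.

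Among the regulators, *Atf4* itself was slightly lower in the high library of each set and did not pass any test of high against low. It was the most abundant of the regulators (3′-end counts do not grow with transcript length, so CPM are compared between genes as they stand), at 520, 577 and 669 CPM in the high and 603, 642 and 737 CPM in the low libraries of sets 16-9-15, 18-8-14 and 1-9-14, the order kept for all triplets below. The groups overlapped, since the high library of set 1-9-14 exceeded the low libraries of both other sets. The log2 fold change was -0.17 ± 0.34 (SE) over 6 libraries and -0.19 ± 0.12 within 2 sets, with edgeR adjusted p = 0.582 for the second. *Atf4* lies on chr15:80255184-80257541, plus strand, in GENCODE vM21 (GRCm38), and these are mRNA counts: the control of ATF4 by translation is not measured here.

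*Atf5*, a transcription factor of the same family whose mRNA is also translated under eIF2 phosphorylation, fell in the high-pigmented cells of the 2 sets. Its levels were 74.5, 119 and 190 CPM in the high and 146, 122 and 273 CPM in the low libraries. The high library was the lower one in each set, with log2 differences of -0.96, -0.043 and -0.52, so set 18-8-14 showed almost no gap and the groups overlapped. Within the 2 sets it was 1.68-fold lower (log2 fold change -0.75 ± 0.15, edgeR adjusted p = 0.0102), and over 6 libraries the log2 fold change was -0.50 ± 0.50 and not called. Over the alternatives tried within the 2 sets its adjusted p ran from 0.000249 to 1.00. The size was not firm either: with no block and 1 library left out, the log2 fold change was -0.14 without the high library of set 16-9-15, -0.15 without the low library of set 1-9-14, -1.05 without the low library of set 16-9-15 and -1.50 without the high library of set 1-9-14. *Atf5* (chr7:44812256-44816658, minus strand) overlaps exons of *Il4i1* and *Nup62* on the other strand, at its 5′ end, and use of strand in the counting is not given in the sources used here.

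Of the other regulators, *Trib3*, a pseudokinase that binds ATF4, was at 267, 265 and 322 CPM in the high and 354, 270 and 420 CPM in the low libraries, lower in every set with overlapping groups. Its log2 fold change within 2 sets was -0.41 ± 0.13 (edgeR adjusted p = 0.134, and 0.0489 to 1.00 over the alternatives). *Cebpb*, which encodes a C/EBP protein that can dimerise with ATF4 and was the regulator with the lowest mean, was at 54.3, 58.2 and 19.8 CPM in the high and 70.6, 28.0 and 36.4 CPM in the low libraries. It was lower in the high library of the 2 sets and higher in set 18-8-14, with a log2 fold change of -0.63 ± 0.20 within 2 sets (edgeR adjusted p = 0.154), which turned to 0.010 or 0.020 without the high library of set 1-9-14 or the low library of set 16-9-15. *Chac1*, which degrades glutathione, was at 153, 152 and 115 CPM in the high and 139, 76.3 and 94.3 CPM in the low libraries. It was higher in every high library of a set, though its groups overlapped, and the log2 fold change of 0.20 ± 0.15 within 2 sets was not called (edgeR adjusted p = 0.663). *Ddit3*, which encodes the stress factor CHOP, was at 366, 662 and 164 CPM in the high and 452, 489 and 168 CPM in the low libraries, so that sets differed far more than the sort. In all, 7 of 9 regulators were negative within 2 sets (median -0.18), 1 fell and none rose.

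**Figure D4:**
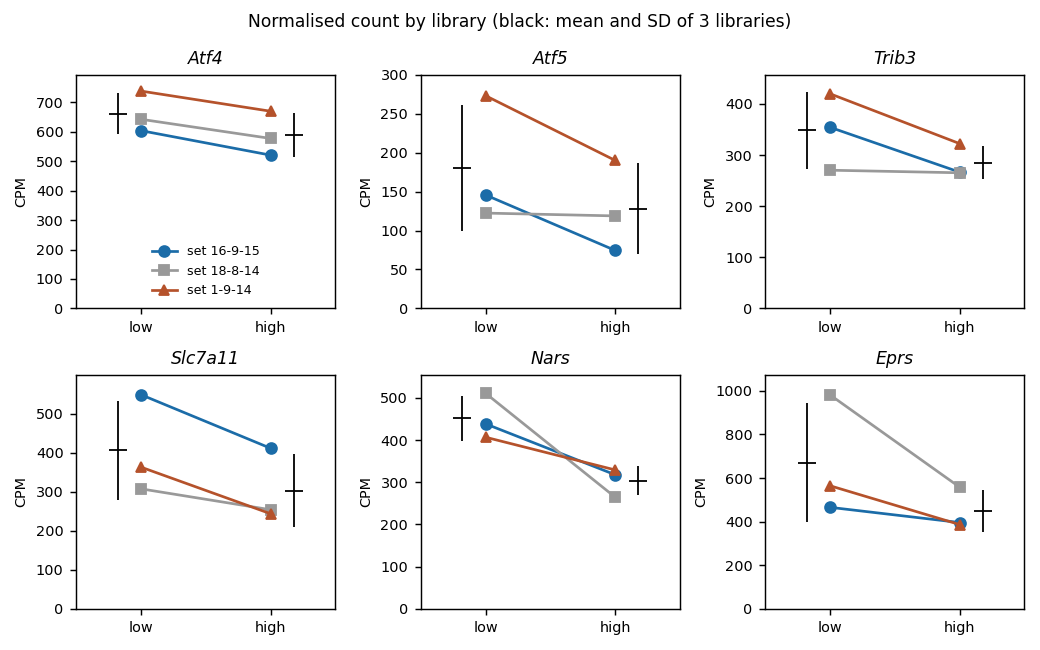
Normalised counts (CPM, linear axis from 0) of 6 genes in each library, with lines joining the low and high library of a set. Black marks are the mean and SD of the 3 libraries of a group. All 6 genes are among the 18 that were lower in the high library of all 3 sets, so every line slopes down by the choice of genes. Genes that rose in a set, such as *Chac1* and *Cth*, are not shown. Of the 6 genes *Nars* alone has all high libraries below all low ones.

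Among the 11 enzymes none was called between high and low cells, 9 of 11 were negative within 2 sets, and the median was -0.15. *Pycr1*, which makes proline in mitochondria and had the lowest mean of the enzymes, was at 4.23, 11.6 and 8.89 CPM in the high and 7.77, 40.9 and 19.6 CPM in the low libraries. Every set had less *Pycr1* in the high library, and the groups overlapped because set 16-9-15 was low in both. The log2 fold change was -1.04 ± 0.38 within 2 sets (edgeR adjusted p = 0.236) and -1.47 ± 0.79 over 6 libraries. *Phgdh*, the first enzyme of serine synthesis, was at 61.2, 37.2 and 55.9 CPM in the high and 107, 45.7 and 61.5 CPM in the low libraries, with a log2 fold change of -0.48 ± 0.19 within 2 sets (edgeR adjusted p = 0.262). Most of that came from set 16-9-15 (log2 difference -0.81 against -0.29 and -0.14), and *Phgdh* shares near-identical stretches with 3 other rows, the longest of 1605 bases with *Gm9252*, so its counts are uncertain.

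*Psph*, the last enzyme of serine synthesis, was at 77.6, 4.66 and 38.0 CPM in the high and 94.9, 29.2 and 43.0 CPM in the low libraries. *Mthfd1l*, which releases formate from the mitochondrial one-carbon pathway, was at 148, 21.5 and 101 CPM in the high and 171, 58.6 and 107 CPM in the low libraries. Both were lower in every high library of a set by a wide margin only in set 18-8-14 (log2 differences -2.56 and -1.43, against -0.29 to -0.07 elsewhere). There the high library held only 8 counts of *Psph* and 37 of *Mthfd1l*. *Mthfd2*, the mitochondrial methylene-tetrahydrofolate dehydrogenase and the most abundant of the enzymes, averaged 418 ± 27.5 CPM (SD, n = 3) in the high and 402 ± 112 (SD, n = 3) in the low libraries. *Cth*, which makes cysteine from cystathionine, was the 1 enzyme higher in all 3 sets, at 80.4, 33.8 and 36.9 CPM in the high and 59.8, 24.0 and 35.2 CPM in the low libraries. Its log2 fold change within 2 sets was 0.24 ± 0.19 (edgeR adjusted p = 0.692). *Asns*, asparagine synthetase and a textbook ATF4 target, was at 74.4, 102 and 94.9 CPM in the high and 83.5, 91.2 and 91.2 CPM in the low libraries, with full overlap.

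Among the transporters *Slc7a11* fell in the high-pigmented cells of the 2 sets. It encodes the light chain of the cystine-glutamate exchanger, which brings in the cystine used for glutathione and for pheomelanin, and its promoter holds the paired motif printed above. It was the most abundant transporter, at 411, 254 and 244 CPM in the high and 548, 307 and 363 CPM in the low libraries. The high library was the lower one in every set, with log2 differences of -0.42, -0.28 and -0.57, while the high library of set 16-9-15 stood above both other low libraries. Within 2 sets *Slc7a11* was 1.42-fold lower (log2 fold change -0.51 ± 0.12, edgeR adjusted p = 0.0413, and 0.00561 to 1.00 over the alternatives), and over 6 libraries the log2 fold change of -0.42 ± 0.41 was not called. With no block and 1 library left out, the log2 fold change within 2 sets was -0.15 without the low library of set 16-9-15, -0.16 without the high library of set 1-9-14, -0.76 without the low library of set 1-9-14 and -0.90 without the high library of set 16-9-15. The gene lies on chr3:49892526-50443614, minus strand.

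*Slc7a1*, a carrier of arginine and lysine, was at 163, 89.0 and 214 CPM in the high and 212, 181 and 263 CPM in the low libraries, lower in every set, with a log2 fold change of -0.34 ± 0.13 within 2 sets (edgeR adjusted p = 0.264). *Slc1a4* was at 34.2, 3.49 and 33.3 CPM in the high and 36.2, 48.0 and 38.7 CPM in the low libraries. Its groups did not overlap, but in sets 16-9-15 and 1-9-14 the gap was small (log2 differences -0.08 and -0.22). The high library of set 18-8-14 held only 6 counts of *Slc1a4*. *Slc1a5*, a glutamine carrier, was at 96.5, 39.0 and 118 CPM in the high and 101, 113 and 143 CPM in the low libraries, with its widest gap in set 18-8-14 too but with overlapping groups. *Slc7a5* and *Slc38a2*, which carry large neutral amino acids and glutamine, were likewise far lower in the high library of set 18-8-14 (log2 differences -2.08 and -2.42) and close to equal in the other sets (-0.20 and 0.043 for *Slc7a5*, 0.072 and 0.0077 for *Slc38a2*).

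2 transporters were near the limit of detection. *Slc7a3*, another carrier of basic amino acids, had 12, 0 and 23 counts in the high and 2, 0 and 3 in the low libraries. It was the 1 gene higher at an unadjusted p under 0.05 within 2 sets (log2 fold change 2.79 ± 1.31, edgeR adjusted p = 0.387), and it entered the test only through its high libraries. *Slc6a9*, a glycine carrier, had 0, 0 and 0 counts in the high and 1, 0 and 1 in the low libraries and was tested in neither fit. Over the 8 transporters tested within 2 sets 6 were negative, with a median of -0.12.

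The 11 cytosolic tRNA synthetases were all lower in the high-pigmented group by their fitted values, and edgeR called none; limma-voom with the block called *Eprs* within 2 sets. All 11 were negative both over 6 libraries and within 2 sets, with a median of -0.28 in the second, and 5 of them (*Eprs*, *Nars*, *Gars*, *Tars*, *Iars*) were lower at an unadjusted p under 0.05. The high library was the lower one in 11 of 11 in set 1-9-14, in 9 in set 16-9-15 and in 8 in set 18-8-14. Genes of 1 library share its scaling and are not independent of each other, so these counts carry no p.

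*Nars*, which charges tRNA with asparagine, was at 318, 265 and 329 CPM in the high and 439, 511 and 407 CPM in the low libraries. All high libraries lay below all low ones, and the log2 fold change was -0.39 ± 0.13 within 2 sets (edgeR adjusted p = 0.143) and -0.57 ± 0.34 over 6 libraries. *Gars*, which charges glycine, was at 270, 184 and 213 CPM in the high and 329, 275 and 280 CPM in the low libraries. Its groups did not overlap either, by a margin of 270 against 275 CPM, and the log2 fold change within 2 sets was -0.35 ± 0.13 (edgeR adjusted p = 0.236).

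*Eprs*, the dual synthetase for glutamate and proline and the most abundant of the 11, was at 396, 558 and 387 CPM in the high and 466, 981 and 565 CPM in the low libraries. It was lower in every set, with overlap through set 18-8-14, and its log2 fold change within 2 sets was -0.40 ± 0.13 (edgeR adjusted p = 0.139, and 0.0303 to 1.00 over the alternatives). *Eprs* shares near-identical stretches with 25 other rows. *Tars*, for threonine, was at 226, 225 and 218 CPM in the high and 268, 188 and 290 CPM in the low libraries, and *Iars*, for isoleucine, at 86.4, 57.6 and 98.1 against 111, 31.7 and 126 CPM. Both were lower in the high libraries of the 2 sets and higher in that of set 18-8-14. *Cars*, for cysteine, was at 65.4, 43.1 and 35.7 CPM in the high and 67.1, 158 and 40.1 CPM in the low libraries, so most of its gap lay in set 18-8-14, and *Wars*, for tryptophan and the least abundant, averaged 35.3 ± 22.5 CPM (SD, n = 3) in the high and 44.9 ± 8.89 (SD, n = 3) in the low libraries.

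Genes with and without the promoter motif were both mostly negative. Of the 12 genes with a match 9 were negative within 2 sets, and the median of their log2 fold changes was -0.25. Of the 19 tested genes with a promoter but no match 18 were negative, and the median was -0.18. *Slc7a11* has matches and *Atf5* has none in the windows searched.

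Sets 16-9-15 and 1-9-14 differed from each other in more of these genes (17) than high and low cells did (2). With the sort held in the fit, 17 of 39 genes passed edgeR's test between the sets, 12 higher and 5 lower in set 16-9-15, where 13.7% of all genes were higher and 11.8% lower. The absolute log2 fold change had a median of 0.35 between sets and 0.19 between high and low cells, against 0.47 and 0.26 over all genes. It was larger between sets in 29 of 39 of the listed genes and in 8042 of all 11906 genes tested. What differed between the sets is not given in the labels, and with 1 high and 1 low library each, a set and its libraries cannot be told apart.

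*Ddit3* had the largest difference between sets, and *Cebpb* and *Ddit4* were close to it. *Ddit3* was 2.45-fold higher in set 16-9-15 (log2 fold change 1.29 ± 0.13), at 366 and 452 CPM there in the high and low library against 164 and 168 CPM in set 1-9-14. *Cebpb* was 2.29-fold higher (1.20 ± 0.21) and *Ddit4*, an inhibitor of mTORC1, 2.24-fold higher (1.17 ± 0.16), at 146 and 138 CPM against 57.1 and 69.8 CPM. *Chac1* was 1.40-fold higher (0.49 ± 0.15). *Atf4* and *Atf5* went the opposite way: *Atf5* was 2.18-fold lower in set 16-9-15 (log2 fold change -1.12 ± 0.15) and *Atf4* 1.25-fold lower (-0.33 ± 0.12, edgeR adjusted p = 0.0459).

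6 of 11 enzymes were called higher in set 16-9-15: *Psph* (2.12-fold), *Cth* (1.93-fold), *Shmt2* (1.75-fold), which feeds serine carbon into the mitochondrial folate pool, *Aldh18a1* (1.60-fold), which starts proline synthesis, *Got1* (1.60-fold), the cytosolic aspartate aminotransferase, and *Mthfd1l* (1.53-fold). *Pycr1* alone of the enzymes was called lower, 2.32-fold (log2 fold change -1.21 ± 0.39), while *Asns* (-0.24) and *Mthfd2* (-0.15) were negative but not called. Of the transporters *Slc7a11* was 1.60-fold higher (0.68 ± 0.12) and *Slc38a2* 2.08-fold lower (-1.06 ± 0.13), at 195 and 185 CPM in set 16-9-15 against 397 and 395 CPM in set 1-9-14. Synthetases differed least: *Cars* was 1.75-fold higher and *Mars*, for methionine, 1.55-fold lower, and in 5 of 11 the set difference was larger than the sort difference. *Mars* and *Ddit3* overlap on opposite strands at their 3′ ends, where this assay reads. *Psph*, *Shmt2*, *Cebpb* and *Cars* also overlap exons of other genes on the opposite strand, and use of strand in the counting is not given.

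The set calls were unequal in firmness. DESeq2 called 12 of the 17, and *Atf4*, *Aldh18a1*, *Chac1*, *Mars* and *Pycr1* lost the call there. *Ddit3*, *Ddit4*, *Psph* and *Slc38a2* were called under all 8 alternatives, and no gene of the 17 changed direction under any. Leaving out 1 of the 4 libraries and with it the sort term left 7 to 9 of the 39 called, and *Atf4*, *Aldh18a1*, *Chac1*, *Got1* and *Mthfd1l* lost the call whichever library was out. *Atf5* and *Cth* lost it only without the high library of set 16-9-15, *Cebpb* without the high library of set 1-9-14 or the low library of set 16-9-15, and *Shmt2* without either low library. *Cars* and *Slc7a11* kept it only without the low library of set 1-9-14, *Mars* only without the low library of set 16-9-15, and *Pycr1* only without the high library of set 1-9-14.

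**Figure D5:**
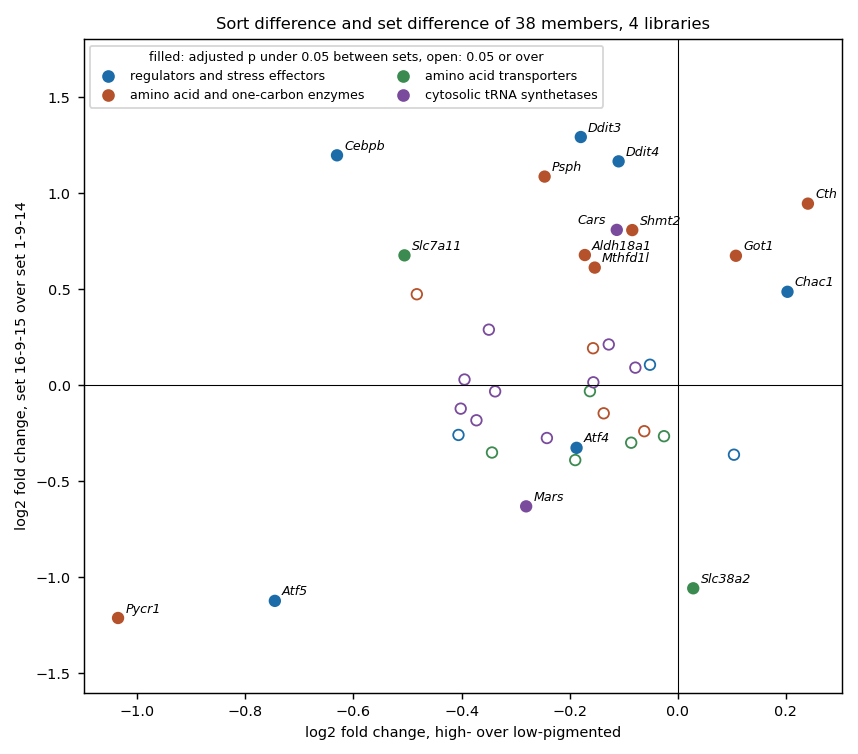
Log2 fold change between sets (y axis, set 16-9-15 over set 1-9-14) against log2 fold change between high and low cells (x axis) for 38 genes, both from the 4-library fit and therefore from the same libraries. Filled points had an adjusted p under 0.05 between sets. Most points lie left of 0 on the x axis, and the 12 and 5 named points lie above and below 0 on the y axis.

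The rest of the pathway was followed in 6 lists of 88 genes, within the 2 sets. Upstream, 15 genes of the eIF2 kinases, eIF2, its exchange factor and its phosphatase had a median of -0.21 (log2 fold change), with 11 negative and none called. *Eif2s2*, the beta subunit of eIF2, was at 1707, 2132 and 1590 CPM in the high and 2018, 4241 and 1882 CPM in the low libraries, and *Eif2s1*, the subunit that is phosphorylated, had a log2 fold change of -0.58 ± 0.21 (edgeR adjusted p = 0.228). *Ppp1ca*, a phosphatase catalytic subunit, had -0.49 ± 0.22 (edgeR adjusted p = 0.348).

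Of 9 tested other genes known as ATF4 targets 7 were negative (median -0.10), and none was called. *Atf3*, a stress-induced transcription factor, had a log2 fold change of -0.65 ± 0.22 (edgeR adjusted p = 0.181), *Xpot*, the tRNA exporter, -0.37 ± 0.14 (0.258), and *Sesn2*, a leucine-binding inhibitor of mTORC1, 0.66 ± 0.25 (0.236). *Atf3* also differed between the sets, with a log2 fold change of 2.86 for set 16-9-15 over set 1-9-14 (edgeR adjusted p = 4.81e-10).

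The other tRNA synthetases were followed in 2 lists named by compartment, and whether a gene serves both compartments was not examined. Of 11 other cytosolic synthetases and scaffold genes 9 were negative (median -0.14), with *Rars* at -0.25 ± 0.13, *Vars* at -0.36 ± 0.25 and *Aimp1* at -0.21 ± 0.15, none called. Of the 17 genes listed as mitochondrial synthetases 9 were negative and 8 positive (median -0.06), and none was called. *Rars2* was at -1.37 ± 0.43, *Fars2* at 0.96 ± 0.47 and *Ears2* at 0.87 ± 0.44, these 3 at no more than 105 counts in a library. The difference between the 2 lists was not tested.

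Among 16 other enzymes 8 were negative and 8 positive (median -0.00), and 1 fell: *Aldh1l2*, which turns the mitochondrial one-carbon unit into carbon dioxide. It was at 127, 57.0 and 30.2 CPM in the high and 167, 154 and 59.2 CPM in the low libraries. The high library was the lower one in every set, though the groups overlapped, with a log2 fold change of -0.68 ± 0.17 (edgeR adjusted p = 0.0477). *Aldh1l2* differed more between the sets, with a log2 fold change of 1.78 for set 16-9-15 over set 1-9-14 (edgeR adjusted p = 2.51e-08). Its call under the alternative fits is not given here. *Shmt1* had -0.89 ± 0.38 and *Aldh1l1*, the cytosolic relative of *Aldh1l2*, 1.56 ± 0.74, both uncalled. The 8 other amino acid transporters tested leaned up rather than down, 6 of 8 positive with a median of 0.28, with *Slc38a9* at 0.53 ± 0.25, *Slc7a8* at 0.75 ± 0.38 and *Slc38a1* at 0.22 ± 0.13, and none was called.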

How the data were processed

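The data were the submitters' deposited matrix of HTSeq read counts per gene for 6 libraries; the submitters' processing notes name STAR and GRCm38, while the annotation, counting mode and use of strand are not given in the sources used here. The deposited counts were neither normalised nor filtered; 12.4% to 29.5% of reads lay on no feature and 0.487% to 2.51% were ambiguous, and both were left out. Genes were filtered (filterByExpr, minimum count 10) and scaled by TMM, and the whole table was fitted with edgeR 4.0.16 (robust quasi-likelihood test, Benjamini-Hochberg adjustment, threshold 0.05), in R 4.3.3: high against low over 6 libraries without a block, and over the 4 libraries of sets 16-9-15 and 1-9-14 with the set as block, which also gave the set difference. CPM use TMM-scaled sizes, except the cell type marker sums, which use total gene counts; within-set differences are log2 CPM with a prior count of 2. Same-suffix libraries deviated together (correlations 0.466, 0.316 and 0.422), so the suffix was taken to pair them. No 2 libraries of a group were alike within counting noise (chi-square per degree of freedom at least 61.8). Alternatives used DESeq2 1.42.0, limma 3.58.1, other scalings and filters, and each library left out. Gene positions and near-identical stretches used GENCODE vM21 and BLAST 2.17.0. Fits were also run on counts simulated from the means and spread of these same libraries, which does not check the calls made here. The members and lists were chosen with earlier results of these data known. Genes were named by rule: *Atf4*; per role, up to 4 genes (mean of at least 10 CPM) with the largest same-sign difference in all 3 sets; every called gene; the lowest and highest per role; and per other list the 3 smallest p. *Asns*, *Iars*, *Nupr1*, *Slc7a3*, *Slc7a5* and *Tars* were named after their values were seen.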

Additional observations from a re-analysis of the deposited data

How the results depend on the processing

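Over 6 libraries 0 of the listed genes were called under every alternative run, and 0 of all genes except with limma-voom, sample weights and the block, which called 34. The listed genes' median log2 fold change (-0.23) stayed negative: -0.32 with the replicate block, -0.31 without TMM, -0.17 with limma-voom, and -0.43 to -0.062 with 1 library left out, nearest 0 without the high library of set 18-8-14. Within 2 sets, 2 listed genes and 155 of all genes were called: 0 and 0 with no replicate block, 4 and 344 with limma-voom (adding *Trib3* and *Eprs*), 254 of all genes with no filter, and 0 and 0 with any 1 library left out, for which the block had to be dropped. DESeq2, RLE scaling, and leaving out RP23-81C12.3 and mitochondrial rRNA each kept 2 listed genes called. The median within 2 sets ran from -0.26 to -0.15 with 1 library left out. *Cebpb* reversed to 0.010 and 0.020 without the high library of set 1-9-14 and the low library of set 16-9-15, and ran from -1.43 to 0.020. Between sets, 17 listed genes and 3035 of all genes were called: 11 and 1939 without the sort as a term, 1710 of all genes with DESeq2, and 7 to 9 and 1178 to 2101 with 1 library left out. DESeq2 kept 12 of the 17 listed genes called between sets. Beyond counts and medians, 49 of the 136 alternative values for the 17 genes lost the call. Depth limits *Slc7a3* and *Slc6a9*, whose libraries held at most 23 counts, and genes of the high library of set 18-8-14, with 9393 counts on all 40 genes.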
